A study of Mus musculus with 2 samples.

Results

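T cell costimulatory receptors and ligands were examined as 9 genes of the 32285 listed in the deposited count tables: the receptors Cd28, Icos, Tnfrsf4 (OX40), Tnfrsf9 (4-1BB), Tnfrsf18 (GITR) and Cd40, and the ligands Icosl, Tnfsf4 (OX40L) and Cd40lg. They were taken by gene symbol, and all 9 were found. The data are single-cell RNA sequencing of 2 orthotopic tumours in mouse pancreas, 1 grown from KPC cells carrying a control hairpin (KPC-shV) and 1 from KPC cells carrying a hairpin against Zeb1 (KPC-shZEB1). KPC is a mouse pancreatic cancer line, and per the study's methods the hairpins were delivered by lentivirus and several individual lines were selected for each stable line. Gemcitabine was given to mice with both kinds of tumour according to the results of the study but not according to the labels, and the supplementary methods name 3 strains (C57BL/6J, BABL/c and NSG) aged 4 to 6 weeks, without stating which of them bore these 2 tumours. Mouse, tumour, dissociation, library and group are the same split, so these cannot be told apart.

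T cells need a second signal beside the antigen receptor, and the genes described here supply it. CD28 is present on resting T cells and binds CD80 and CD86, while its relative ICOS appears after activation and binds ICOS ligand on B cells and other antigen-presenting cells. OX40, 4-1BB and GITR belong to the tumour necrosis factor receptor family, appear on activated and regulatory T cells and signal through TRAF adaptors to NF-κB. CD40 is the reverse arrangement, a receptor of the same family on B cells, dendritic cells and macrophages that is engaged by CD40 ligand on helper T cells.

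The KPC-shV library held 12594 barcodes and 130941086 unique molecular identifiers (UMIs), and the KPC-shZEB1 library held 13271 barcodes and 143461224 UMIs. After filtering, 11394 and 12113 cells were kept, with median depths of 3721 and 4254 UMIs, and 36 barcode sequences occurred among the kept cells of both libraries. Zeb1, the gene targeted by the hairpin, stood at 130 UMIs per 1000000 UMIs of the class (CPM; 95% interval 125 to 135) in tumour-like cells of KPC-shV and at 171 CPM (166 to 176) in those labelled KPC-shZEB1. In this class the level of the target thus went against the labels, and KPC-shV and KPC-shZEB1 stand below for the libraries so labelled. The class was named by epithelial markers such as Epcam and keratins. Zeb1 was not read in an unnamed cluster led by Prg4 and Ecrg4, with 497 cells of KPC-shV and 192 of KPC-shZEB1. T-like cells made up 3.57% of the kept cells of KPC-shV and 10.5% of those of KPC-shZEB1. Cd3e, a T cell receptor subunit that granulocytes do not make, stood at 1.93 CPM in granulocyte-like cells of KPC-shV and at 5.81 CPM in those of KPC-shZEB1, so a low level of T cell RNA lay in other classes and was higher in KPC-shZEB1.

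The class names were checked against defining markers. Foxp3 stood at 176 and 260 CPM in the regulatory T-like cells of KPC-shV and KPC-shZEB1 and at 3.51 and 5.17 CPM in the conventional CD4 T-like cells. Cd4 stood at 302 and 243 CPM in the conventional CD4 T-like cells and Cd8a at 216 and 171 CPM in the naive or memory CD8 T-like cells. Trdc, the delta chain constant gene, stood at 294 and 304 CPM in the gamma-delta T-like cells. Ms4a1 (CD20) stood at 600.1 and 462 CPM in the B-like cells, and Fscn1 at 1383 and 1368 CPM in the mature dendritic-like cells. The effector CD8 T-like class was less pure: beside Cd8a at 364 and 316 CPM it held Cd4 at 51.9 and 42.9 CPM. A cycling sub-cluster led by Hist1h1b and Hist1h2ap gave 497780 of its 809704 UMIs in KPC-shV and 1244473 of 2376125 in KPC-shZEB1.

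Levels below are in CPM, given as KPC-shV first and KPC-shZEB1 second, with exact Poisson 95% intervals in parentheses. Ratios are KPC-shZEB1 over KPC-shV with an exact 95% interval. All intervals cover counting error only and say nothing of the spread between mice, and no test was possible with 1 library per group. The 3′ counts do not allow levels of different genes to be compared, so each gene is followed across classes and libraries. A gene was counted as past the fold in a class when it had at least 30 UMIs over both libraries and its ratio reached 1.5 or fell to the inverse of 1.5. Of the 56 pairs of a member and a class with enough UMIs, 15 were past the fold (26.8%), beside 19% of the 77084 pairs of any gene and class that had enough UMIs. Of the member pairs past it, 5 lay in monocyte-macrophage-like cells, all higher, and 2 higher and 1 lower lay in B-like cells. Both classes held these genes only at the low levels given below.

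Cd28 and Icos lie on chromosome 1 at chr1:60716800-60773359 and chr1:60977927-61000320 (mm10, plus strand), 205 kb apart, with Ctla4 as another gene of the family. Tnfrsf4 (chr4:156013843-156016612) and Tnfrsf18 (chr4:156026164-156028895) are neighbours on the plus strand of chromosome 4, separated by 9.55 kb, and Tnfrsf9 lies on the same chromosome at chr4:150914562-150946102. Tnfsf4 lies at chr1:161395409-161418410, Icosl at chr10:78069302-78083913, Cd40 at chr2:165055627-165072948 and Cd40lg at chrX:57212143-57224042, all on the plus strand. Tnfrsf9 overlaps Camta1 and Tnfrsf18 overlaps Gm16008 on the opposite strand, Icos overlaps Gm37039 on the same strand, and whether the counting used strand was not given in the sources used here. RefSeq windows of 250 bases before the start (GRCm38.p6) were at hand for 4 of the 9 genes, with 2 starts for Tnfrsf9. The letters GGG, any 2 bases and TTTCC, an NF-κB type motif chosen after these sequences were seen and searched on both strands, occurred in 1 of these 5 windows, 43 bases before the second Tnfrsf9 start, and in 1.41% of the 32851 windows of that length. The 30 bases around the match, chr4:150927946-150927975 on the plus strand, are shown with the matching letters in capitals because the match sets Tnfrsf9 apart from the other windows of these genes, and a match is not evidence of binding.
Tnfrsf9: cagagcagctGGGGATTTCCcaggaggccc

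**Figure D1:**
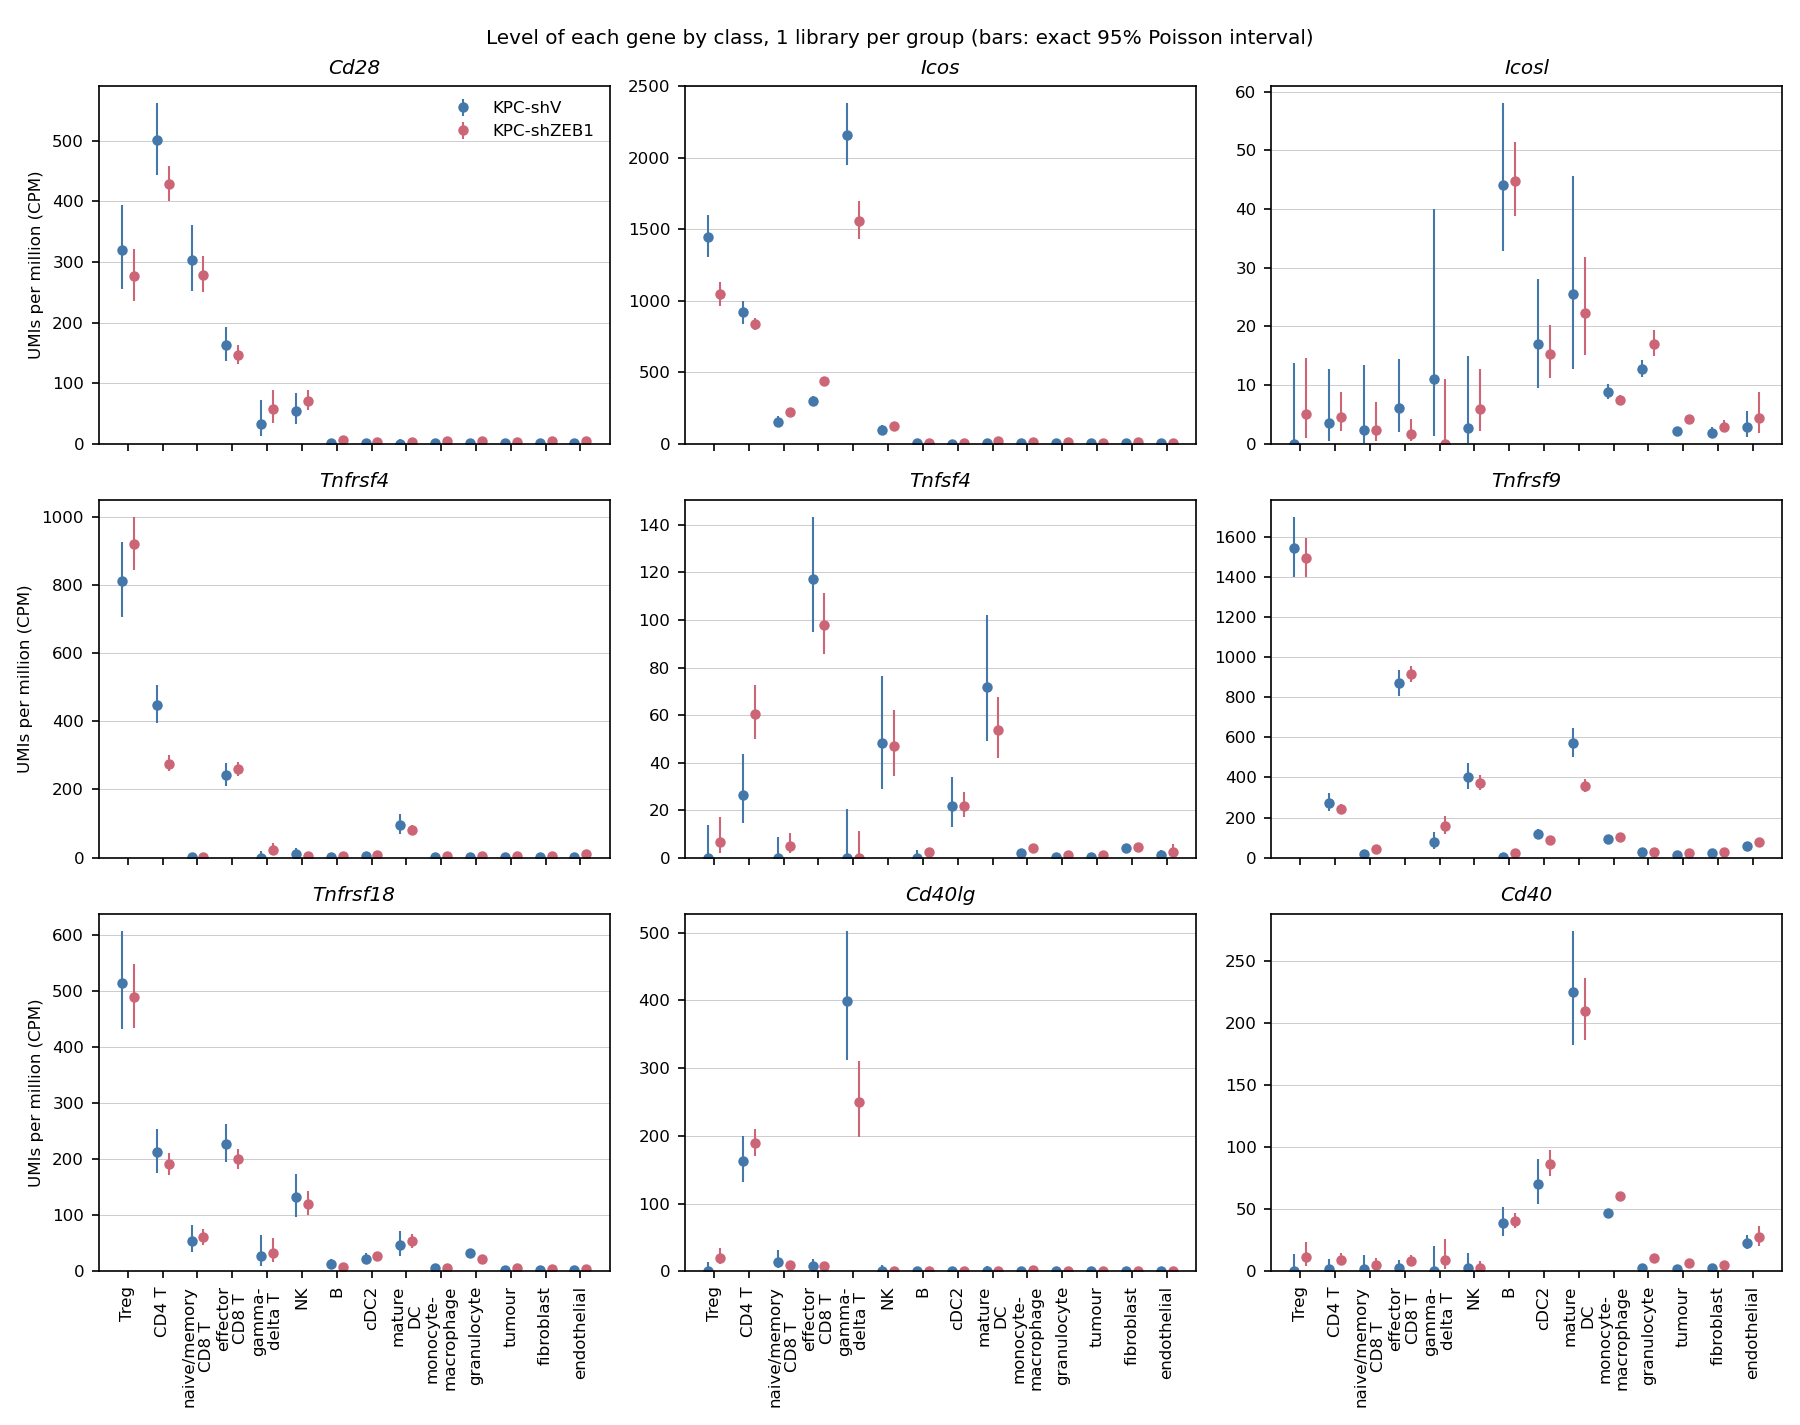
CPM of each gene (y axis, linear, its own scale in each panel) in 14 classes (x axis), with KPC-shV in blue and KPC-shZEB1 in red, 1 library each, and bars for exact 95% Poisson intervals. Tnfrsf4, Tnfrsf9 and Tnfrsf18 peak in regulatory T-like cells (Treg), Icos and Cd40lg in gamma-delta T-like cells, Cd40 in mature dendritic-like cells and Icosl in B-like cells.

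Cd28, which gives the first costimulatory signal to resting T cells, was highest in the conventional CD4 T-like cells. There it stood at 500.2 CPM (444 to 562) in KPC-shV and at 429 CPM (400.0 to 459) in KPC-shZEB1, a ratio of 0.857 (0.748 to 0.984). The 2 intervals of the levels overlapped, and when each library was clustered alone the ratio was 1.22. Regulatory T-like cells followed at 319 CPM (255 to 394) and 276 CPM (236 to 322), and naive or memory CD8 T-like cells lay beside them at 302 CPM (252 to 360) and 278 CPM (250 to 309), so these neighbours did not differ beyond counting error. Effector CD8 T-like cells held less Cd28, 163 CPM (136 to 193) and 147 CPM (132 to 163). Gamma-delta T-like and NK-like cells were lowest among the T-like and NK-like classes, with 33.3 and 57.2 CPM and with 53.8 and 70.3 CPM. Among non-lymphoid classes Cd28 stood near 1.44 CPM in granulocyte-like cells of KPC-shV and 4.40 CPM in those of KPC-shZEB1, a ratio of 3.04 beside 3.02 for Cd3e.

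The conventional CD4 T-like class was not uniform for Cd28. Its sub-cluster led by Cd40lg and Slamf1, the genes that gave it its name, held 738 CPM (621 to 872) and 581 CPM (527 to 640). The sub-cluster led by Hs6st3 and Dgki, in which Tnfrsf4 and Tnfrsf9 were highest, held 435 CPM (360 to 522) and 239 CPM (201 to 282), a ratio of 0.548 (0.426 to 0.708). The sub-cluster led by St8sia6 and Fanci, where Tnfrsf4 was nearly absent, went the other way with 261 CPM (176 to 373) and 429 CPM (380 to 484), a ratio of 1.64 (1.12 to 2.48). The 3 sub-clusters held 38, 41 and 29 cells of KPC-shV and 165, 86 and 153 cells of KPC-shZEB1, so their mix also differed between the libraries.

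Icos, the inducible relative of Cd28, reached its highest level in gamma-delta T-like cells, a small class of 33 and 58 cells. It stood there at 2157 CPM (1948 to 2382) in KPC-shV and at 1560 CPM (1429 to 1700.0) in KPC-shZEB1, intervals that did not overlap, with a ratio of 0.723 (0.633 to 0.827). Regulatory T-like cells gave a like pair, 1444 CPM (1303 to 1596) and 1046 CPM (966 to 1132), with a ratio of 0.724 (0.637 to 0.825). In the conventional CD4 T-like cells the level was 918 CPM (841 to 1000) and 838 CPM (797 to 879), and these intervals overlapped. Icos was therefore lower in KPC-shZEB1 in the 2 classes of at least 30 cells with the highest levels, with no overlap of the intervals.

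In CD8 T-like cells the order of the libraries was the opposite. Effector CD8 T-like cells held Icos at 298 CPM (261 to 338) and 439 CPM (413 to 466), a ratio of 1.47 (1.28 to 1.70). Naive or memory CD8 T-like cells held 154 CPM (118 to 196) and 223 CPM (198 to 251), a ratio of 1.45 (1.10 to 1.94). The levels in KPC-shZEB1 lay above those of KPC-shV with no overlap of intervals in both CD8 classes, although neither ratio reached the fold of 1.5. The effector ratio turned to 0.887 when each library was clustered alone and to 0.956 when the top 8% of doublet scores were removed. After each cell was thinned to 1000 UMIs, 20.6% of 63 effector CD8 T-like cells of KPC-shV and 37.1% of 194 of KPC-shZEB1 held an Icos UMI, against 0.321% and 1.02% of granulocyte-like cells. Without thinning the shares were 81.0% and 82.0% in the effector cells, with median depths of 11453 and 9569 UMIs, and 0.874% and 3.05% in the granulocyte-like cells, with 3148 and 2907 UMIs.

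NK-like cells held little Icos, 96.9 CPM (67.9 to 134) and 128 CPM (107 to 152). The 9 and 19 cells of the type 2 innate lymphoid-like class, too few to enter the comparison, held 1426 CPM (1127 to 1780.0) and 1090 CPM (889 to 1324). Outside the lymphoid classes Icos stood at 2.63 and 10.1 CPM in granulocyte-like, 3.03 and 9.42 CPM in monocyte-macrophage-like and 2.44 and 6.99 CPM in tumour-like cells. These low levels were between 2.86 and 3.83 times higher in KPC-shZEB1, as was the low Cd3e level at 3.02-fold in the granulocyte-like cells, and the part of free T cell RNA in them was not tested.

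Tnfrsf4, the OX40 receptor, was foremost a gene of regulatory T-like cells, with 810.2 CPM (706 to 926) in KPC-shV and 919 CPM (844 to 999) in KPC-shZEB1. The intervals overlapped and the ratio was 1.13 (0.967 to 1.33). Thinned to 1000 UMIs, 50% of 58 and 47.2% of 123 regulatory T-like cells held a Tnfrsf4 UMI, against 0.233% and 0.485% of granulocyte-like cells. Unthinned shares were 93.1% and 82.9% in the regulatory T-like cells (median 4197 and 4107 UMIs) and 0.612% and 1.82% in the granulocyte-like cells.

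Conventional CD4 T-like cells were second in KPC-shV, and here the libraries parted. Tnfrsf4 stood at 448 CPM (394 to 506) in KPC-shV and at 276 CPM (253 to 300.0) in KPC-shZEB1, with a ratio of 0.616 (0.529 to 0.718). The intervals did not overlap, and the ratio lay below 1 in all 12 alternatives computed, between 0.495 and 0.885. The Hs6st3- and Dgki-led sub-cluster held 776 CPM (674 to 889.6) and 529 CPM (471 to 591), a ratio of 0.681 (0.569 to 0.816). The Cd40lg- and Slamf1-led sub-cluster held 250 CPM (183 to 332) and 299 CPM (260 to 342), with overlapping intervals, and the St8sia6- and Fanci-led sub-cluster only 8.71 and 14.3 CPM. The intervals were thus apart in the sub-cluster with the most Tnfrsf4, and the sub-cluster with the least gave 29 of 108 cells of the class in KPC-shV and 153 of 404 in KPC-shZEB1.

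Effector CD8 T-like cells held Tnfrsf4 at 242 CPM (209 to 278) and 260 CPM (240 to 281), overlapping and below the regulatory level in each library. The 5 cells with the most Tnfrsf4 held 47.45% of its UMIs there in KPC-shV and 20.1% in KPC-shZEB1. Under 12 alternatives the ratio ran from 0.584 at a resolution of 2 to 1.5 without these top cells. Naive or memory CD8 T-like cells held 2.40 and 3.24 CPM from 1 and 4 UMIs, beside 1.84 and 5.96 CPM in granulocyte-like cells, and NK-like cells held 10.8 and 5.86 CPM. Among non-T classes the mature dendritic-like cells stood out with 95.1 CPM (68.3 to 129) and 79.7 CPM (65.4 to 96.4), while the type 2 conventional dendritic-like cells had 3.41 and 7.62 CPM. An unnamed cluster led by Prg4 and Ecrg4 held 8.45 and 9.09 CPM, and through its 497 cells in KPC-shV it carried 12.3% of all Tnfrsf4 UMIs of that library, against 2.14% in KPC-shZEB1.

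Tnfrsf9, the 4-1BB receptor, was found in lymphoid, dendritic, myeloid and endothelial classes. Regulatory T-like cells held the most, 1542 CPM (1396 to 1698) and 1493 CPM (1397 to 1594), with a ratio of 0.969 (0.861 to 1.09). Effector CD8 T-like cells came second with 869.5 CPM (806 to 936) and 914 CPM (876 to 953). NK-like cells held 404 CPM (342 to 474) and 372 CPM (336 to 411). In none of these 3 classes did the libraries part beyond counting error. Within the effector class the sub-cluster led by Gm156 and Lrrc9 held 1407 and 1311 CPM and the cycling sub-cluster led by Hist1h1b and Hist1h2ap 532 and 552 CPM.

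In mature dendritic-like cells, the migratory antigen-presenting cells marked by Fscn1 and Ccr7, Tnfrsf9 was lower in KPC-shZEB1. It stood at 571 CPM (502 to 647) in KPC-shV and at 357 CPM (326 to 390) in KPC-shZEB1, a ratio of 0.625 (0.535 to 0.732), with no overlap of the intervals. The ratio stayed below 1 in all 11 alternatives, between 0.509 and 0.715. In type 2 conventional dendritic-like cells the levels were 116 CPM (94.6 to 141) and 86.1 CPM (75.9 to 97.2), a ratio of 0.742 (0.588 to 0.943). That ratio rested on few cells: the 5 cells with the most Tnfrsf9 held 81.4% of its UMIs in KPC-shV, and without the 5 top cells of each library the ratio was 2.41.

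Naive or memory CD8 T-like cells held little Tnfrsf9, 19.2 CPM (8.29 to 37.8) and 42.9 CPM (32.1 to 56.1), from 8 and 53 UMIs. Their ratio of 2.23 (1.05 to 5.44) turned to 0.603 with no doublets removed and to 0.642 at a clustering resolution of 2. Gamma-delta T-like cells held 77.6 CPM (42.4 to 130.2) and 157 CPM (117 to 205), a ratio of 2.02 (1.10 to 3.94), but 36 of the 52 UMIs of KPC-shZEB1 came from 1 cell. The ratio there was below 1 in 5 of 8 alternatives, down to 0.647. B-like cells, with 3.46 and 21.0 CPM, were below the granulocyte-like level of 30.6 CPM in KPC-shV and 27.0 CPM in KPC-shZEB1.

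Monocyte-macrophage-like cells, which were many and deep, held the largest portion of Tnfrsf9 UMIs, 39.1% in KPC-shV and 36.7% in KPC-shZEB1, at a level of 94.9 CPM (91.0 to 98.9) and 102 CPM (98.6 to 105). All T-like cells together held 24.4% and 36.3%. Endothelial-like cells also carried the gene, at 60.2 CPM (51.5 to 70.1) and 79.8 CPM (67.3 to 94.1), above fibroblast-like cells at 22.2 and 30.6 CPM and tumour-like cells at 14.1 and 20.7 CPM.

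Tnfrsf18, the GITR receptor, was also led by the regulatory T-like cells, and its levels in the T-like and NK-like classes lay close together in the 2 libraries. They held 514 CPM (431 to 608) and 489 CPM (434 to 548), a ratio of 0.951 (0.774 to 1.17). Effector CD8 T-like cells held 227 CPM (196 to 263) and 200.3 CPM (183 to 219), and conventional CD4 T-like cells lay beside them at 212 CPM (176 to 254) and 191 CPM (172 to 212). NK-like cells came next, with 132 CPM (97.6 to 174) and 120.1 CPM (99.8 to 143). The intervals of the libraries overlapped in all 4 classes. Naive or memory CD8 T-like cells held 55.2 and 60.7 CPM and gamma-delta T-like cells 27.7 and 33.1 CPM.

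Tnfrsf18 was also found in granulocyte-like cells. Its level there was 32.4 CPM (30.1 to 34.8) in KPC-shV and 22.9 CPM (20.5 to 25.7) in KPC-shZEB1, a ratio of 0.708 (0.618 to 0.810), with no overlap. Unlike Cd28, Icos and Tnfrsf4, which were higher in the granulocyte-like cells of KPC-shZEB1, Tnfrsf18 was thus lower there. Monocyte-macrophage-like cells held only 6.14 and 6.92 CPM and tumour-like cells 3.42 and 5.71 CPM, so the granulocyte-like level was not shared by all classes. With 6863 cells of KPC-shV and 4332 of KPC-shZEB1, the class carried 43.9% of the Tnfrsf18 UMIs of KPC-shV and 11.9% of those of KPC-shZEB1. Unthinned, 8.68% and 6.44% of granulocyte-like cells held a Tnfrsf18 UMI, and 7.30% and 8.99% of the monocyte-macrophage-like cells, whose median depths were 13284 and 14361 UMIs. Thinned to 1000 UMIs, the shares were 2.97% and 2.24% in the former and 0.247% and 0.759% in the latter.

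**Figure D2:**
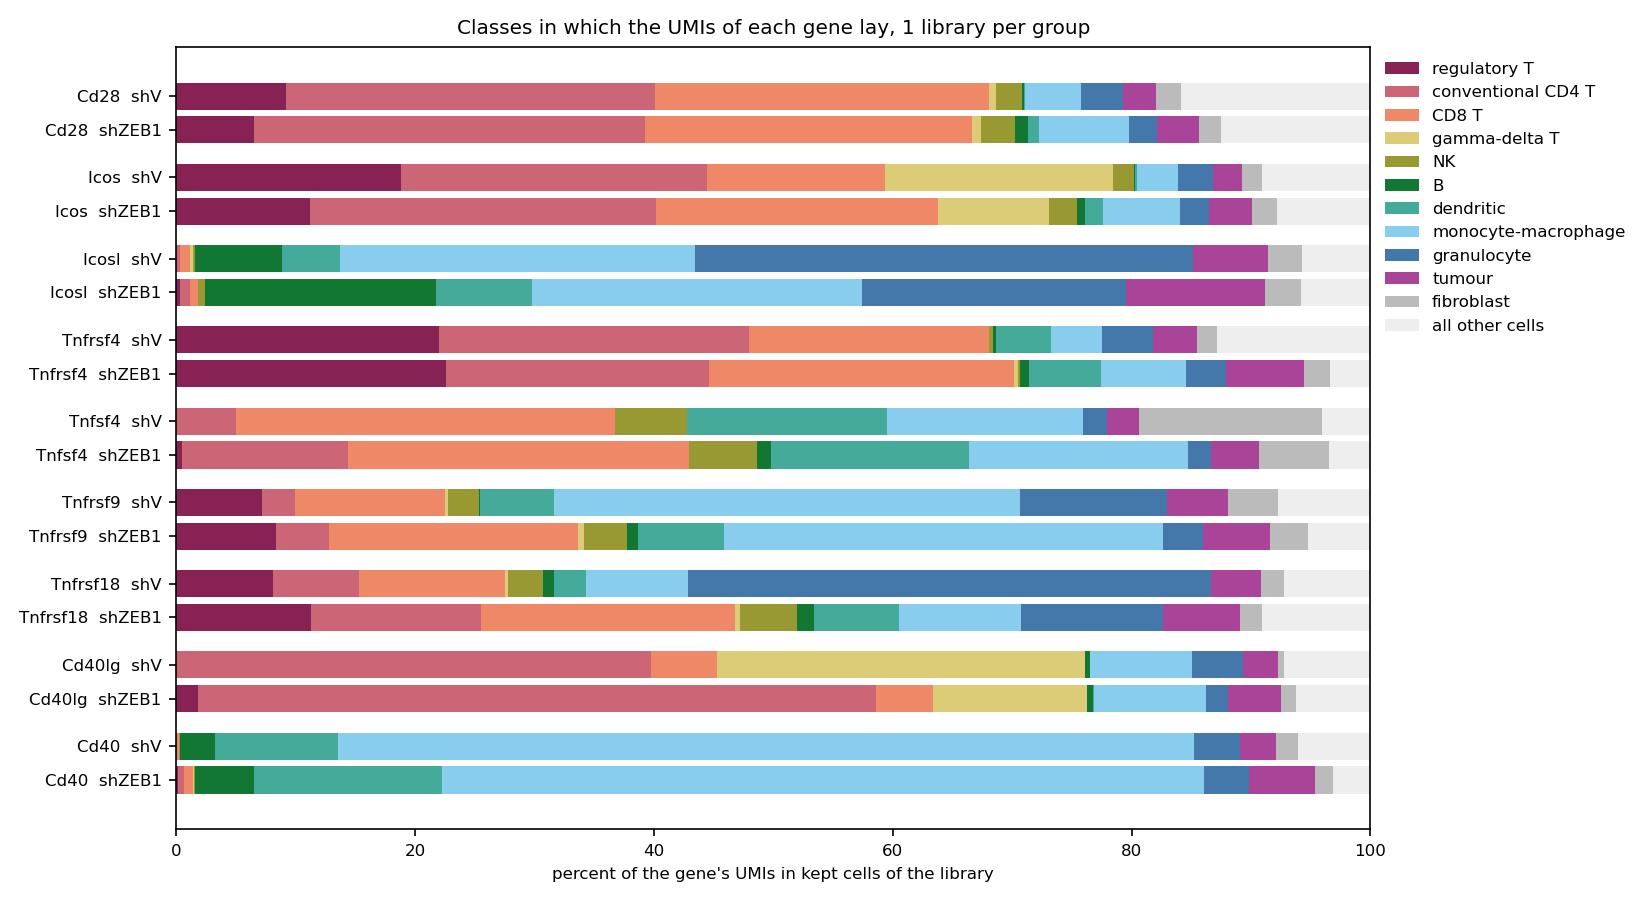
Percent of the UMIs of each gene in kept cells (x axis) that lay in each class (colours), with 1 bar per gene and library (y axis). Granulocyte-like cells took 43.9% of the Tnfrsf18 UMIs in KPC-shV and 11.9% in KPC-shZEB1, while monocyte-macrophage-like cells took the largest portion of Tnfrsf9 and Cd40 in both.

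Cells that held Tnfrsf4 were examined for the other TNF receptor genes. After thinning, 75.9% of 29 regulatory T-like cells of KPC-shV with a Tnfrsf4 UMI also held a Tnfrsf9 UMI, and 65.5% of the 29 cells without. In KPC-shZEB1 these were 81.0% of 58 cells (68.6 to 90.1, Clopper-Pearson) and 50.8% of 65 cells (38.1 to 63.4), intervals that did not overlap, while those of KPC-shV did. In conventional CD4 T-like cells 38.7% of 31 and 26.5% of 68 cells with a Tnfrsf4 UMI held a Tnfrsf18 UMI, against 11.7% of 77 and 9.82% of 336 cells without. Cd28 was found in 43.6% of 39 and 41.7% of 175 conventional CD4 T-like cells with Icos and in 18.8% of 69 and 27.1% of 229 without. Cells of 1 library share their source, so these shares are descriptions of the 2 libraries.

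The ligands were followed in the same way. Tnfsf4, the OX40 ligand, was highest in effector CD8 T-like cells, at 117 CPM (94.9 to 143) and 98.1 CPM (85.9 to 112), with a ratio of 0.836 (0.656 to 1.07). The 5 cells richest in Tnfsf4 held 66.3% of its UMIs in that class of KPC-shV and 27.5% in KPC-shZEB1, and without these 5 cells in each library the ratio was 1.79. It was 0.645 without the cycling sub-cluster and 1.27 with each library clustered alone, so the ratio of this gene depended on a few cells. Mature dendritic-like cells followed with 71.9 CPM (48.9 to 102) and 53.7 CPM (42.0 to 67.6), NK-like cells with 48.4 CPM (28.7 to 76.6) and 46.9 CPM (34.6 to 62.2), and type 2 conventional dendritic-like cells with 21.6 CPM (13.0 to 33.7) and 21.9 CPM (16.9 to 27.8). None of these differed between libraries beyond counting error, but the mature dendritic-like ratio was 2.40 without the 5 top cells of each library and the NK-like ratio was 8.66 when the members and partner genes were among the variable genes.

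In conventional CD4 T-like cells Tnfsf4 stood at 26.3 CPM (14.7 to 43.4) in KPC-shV and at 60.5 CPM (50.02 to 72.5) in KPC-shZEB1, a ratio of 2.30 (1.34 to 4.24). The intervals did not overlap. Of its 15 and 117 UMIs in the class, 15 and 111 lay in the Hs6st3- and Dgki-led sub-cluster, where the levels were 56.3 CPM (31.5 to 92.8) and 191 CPM (157 to 229). The UMIs came from 7 of 108 and 31 of 404 cells, with up to 18 in 1 cell, and when each library was clustered alone the ratio was 0.0526. In this sub-cluster the ligand Tnfsf4 was higher in KPC-shZEB1 while its receptor Tnfrsf4 was lower. Regulatory T-like cells held no Tnfsf4 UMI in KPC-shV, where 3 UMIs would have been 11.3 CPM, and 4 UMIs in KPC-shZEB1. Gamma-delta T-like cells held none in either library, where 3 UMIs would have been 16.6 and 9.04 CPM.

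**Figure D3:**
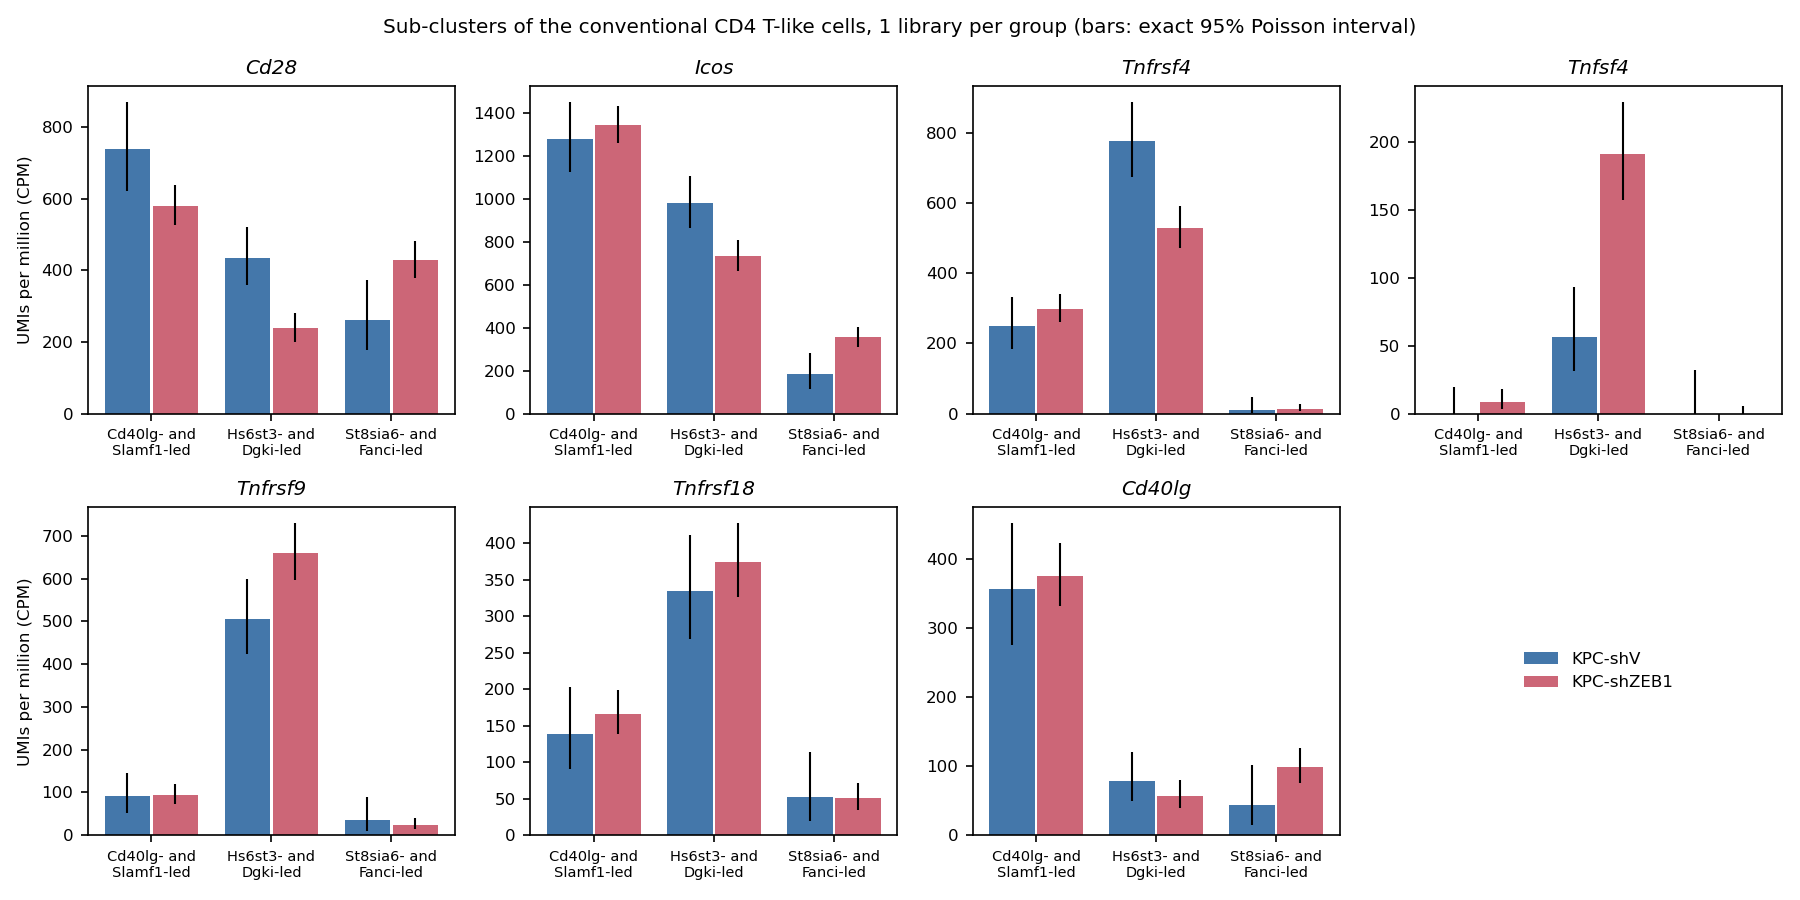
CPM of 7 genes (y axis, linear from 0, its own scale in each panel) in the 3 sub-clusters of the conventional CD4 T-like cells (x axis), KPC-shV in blue and KPC-shZEB1 in red, 1 library each, with exact 95% Poisson intervals. In the Hs6st3- and Dgki-led sub-cluster Tnfrsf4 stood at 776 and 529 CPM and Tnfsf4 at 56.3 and 191 CPM. Cd40lg was highest in the sub-cluster named for it, which follows from the naming by leading genes.

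Icosl, the ligand of ICOS, was led by B-like cells at 44.2 CPM (32.9 to 58.1) and 44.8 CPM (38.8 to 51.4). The ratio was 1.01 (0.742 to 1.41). Mature dendritic-like cells held 25.5 CPM (12.7 to 45.7) and 22.4 CPM (15.1 to 31.9), and type 2 conventional dendritic-like cells 17.1 CPM (9.55 to 28.1) and 15.2 CPM (11.2 to 20.3), so these neighbours could not be told apart at this depth. Granulocyte-like cells held 12.8 CPM (11.4 to 14.3) and 17.1 CPM (14.9 to 19.4), a ratio of 1.34 (1.12 to 1.59). By number these cells carried the largest portion of Icosl UMIs in KPC-shV, 41.7%, and monocyte-macrophage-like cells did so in KPC-shZEB1 with 27.6%. The portion held by B-like cells was 7.29% and 19.4%, at an even level, and the class made up 2.53% of the kept cells of KPC-shV and 10.1% of those of KPC-shZEB1.

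Cd40lg, the helper signal for B cells and dendritic cells, stood highest in gamma-delta and conventional CD4 T-like cells among the classes with at least 30 cells of each library. Gamma-delta T-like cells carried 30.8% and 12.9% of its UMIs, conventional CD4 T-like cells 39.7% and 56.7%, and monocyte-macrophage-like cells, at a low level, 8.55% and 9.30%. Gamma-delta T-like cells held 399 CPM (312 to 503) and 250 CPM (199 to 310), a ratio of 0.626 (0.451 to 0.871), and the intervals of the levels did not overlap. The 8 alternatives that gave a value placed this ratio between 0.528 and 0.723. Keeping doublets and clustering each library alone gave no value for this class. Conventional CD4 T-like cells held 163 CPM (132 to 200) and 189 CPM (170.3 to 210), with a ratio of 1.16 (0.921 to 1.47). Their Cd40lg- and Slamf1-led sub-cluster held 356 CPM (276 to 452) and 375 CPM (332 to 423), and the other sub-clusters at most 98.5 CPM. Since Cd40lg gave this sub-cluster its name, the higher level there follows from the naming. Regulatory T-like cells held none in KPC-shV, where 3 UMIs would have been 11.3 CPM, and 12 UMIs, 20.1 CPM (10.4 to 35.1), in KPC-shZEB1. Effector CD8 T-like cells held 8.65 and 8.42 CPM, and NK-like cells held none in either library, where 3 UMIs would have been 8.07 and 2.93 CPM. An unnamed T cell cluster of 14 and 35 cells led by Slc35f3 and Il4 held 161 CPM (73.6 to 306) and 189 CPM (124 to 275).

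Il17a, a cytokine of this kind of gamma-delta T cell, stood at 1708 CPM in the gamma-delta T-like cells of KPC-shV and at 452 CPM in those of KPC-shZEB1, so Icos and Cd40lg were not alone in being lower there.

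Cd40, the receptor on antigen-presenting cells, was highest in mature dendritic-like cells at 225 CPM (183 to 275) and 210.2 CPM (186 to 236). The ratio was 0.934 (0.739 to 1.19), and it was 1.74 without the 5 cells with the most Cd40 in each library, which held 67.0% of the UMIs in the 39 cells of KPC-shV and 31.2% in the 110 cells of KPC-shZEB1. Type 2 conventional dendritic-like cells held 70.5 CPM (54.0 to 90.4) and 86.8 CPM (76.6 to 97.9), and B-like cells 39.0 CPM (28.4 to 52.2) and 40.7 CPM (35.0 to 47.1), with overlapping intervals in both. Monocyte-macrophage-like cells held 47.3 CPM (44.5 to 50.1) in KPC-shV and 61.2 CPM (58.7 to 63.7) in KPC-shZEB1, a ratio of 1.29 (1.21 to 1.39) with no overlap. They carried 71.7% and 63.8% of all Cd40 UMIs. Endothelial-like cells held 23.3 and 27.9 CPM. In granulocyte-like cells Cd40 stood at 2.58 and 10.5 CPM, and in tumour-like cells at 2.30 and 6.99 CPM.

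**Figure D4:**
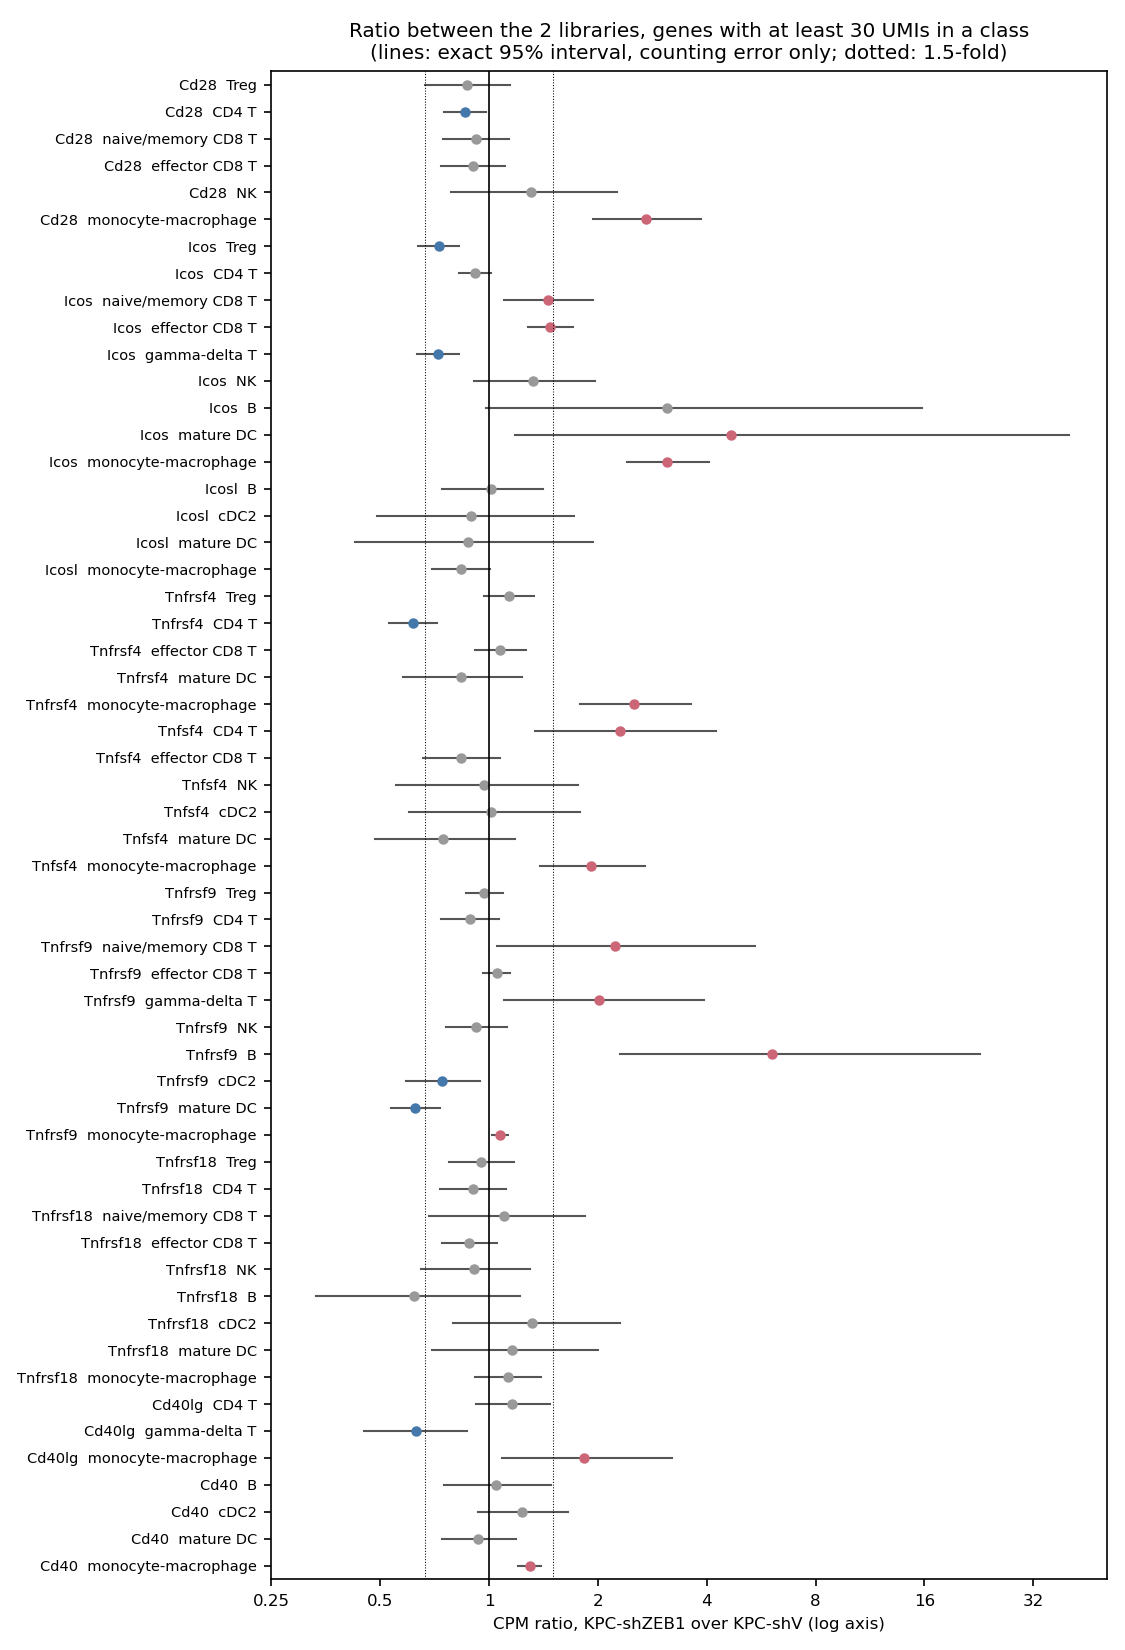
CPM ratio of KPC-shZEB1 over KPC-shV (x axis, log scale) for every gene and class (y axis) with at least 30 UMIs over both libraries, with exact 95% intervals for counting error. Red points have an interval above 1, blue points below 1 and grey points across 1, and the dotted lines mark the 1.5-fold limits, which 15 of the 56 points passed (26.8%, beside 19% of such pairs over all genes). Of these 15, 5 lay in monocyte-macrophage-like cells and 2 higher and 1 lower in B-like cells, all at low levels.

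Members past the fold were also counted by class. In regulatory T-like cells 0 of the 5 members with enough UMIs were past it in either direction, beside 12.9% of 4760 genes higher and 9.29% lower. In conventional CD4 T-like cells 1 of 7 was higher (Tnfsf4) and 1 lower (Tnfrsf4), beside 13.3% and 7.03% of 7868 genes. In naive or memory CD8 T-like cells 1 of 4 was higher (Tnfrsf9) and 0 lower, beside 15.2% and 7.1% of 6523 genes. In effector CD8 T-like cells 0 of 6 were past the fold, beside 11.9% higher and 5.96% lower of 8988 genes. The median log2 ratio of the members was -0.07 in the regulatory T-like and -0.04 in the effector CD8 T-like cells, with 0.01 and 0.06 over all genes tested.

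In gamma-delta T-like cells 1 of 3 was higher (Tnfrsf9) and 1 lower (Cd40lg), beside 15.5% and 11.2% of 3051 genes. In NK-like cells 0 of 5 were past the fold, beside 11.9% and 8.2% of 6222 genes. In B-like cells 2 of 5 were higher (Tnfrsf9 and Icos) and 1 lower (Tnfrsf18), beside 13.4% and 3.81% of 9943 genes, and all 3 stood at or below 21.0 CPM. The Icos ratio in the B-like cells, 3.10 (0.98 to 15.7), was 0.585 with the top 8% of doublet scores removed and 0.808 with the least class subtracted, and the Tnfrsf18 ratio of 0.620 was 0.850 without the 5 top cells. The least class for Icos held 0 UMIs in KPC-shV and 18 in KPC-shZEB1, so that subtraction lowered the KPC-shZEB1 level only. In type 2 conventional dendritic-like cells 0 of 5 were past the fold, beside 13.3% and 7.37% of 8682 genes. In mature dendritic-like cells 1 of 7 was higher (Icos, 4.64 and 21.6 CPM) and 1 lower (Tnfrsf9), beside 13.4% and 10.3% of 6257 genes, and 58.6% of the Icos UMIs of KPC-shZEB1 there came from 5 cells.

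In monocyte-macrophage-like cells 5 of 9 members were higher (Tnfrsf4, Tnfsf4, Icos, Cd28 and Cd40lg) and 0 lower, beside 10.2% and 2.26% of 14790 genes. The 5 genes stood between 0.853 and 3.03 CPM in KPC-shV and between 1.56 and 9.42 CPM in KPC-shZEB1. Cd3e stood at 0.981 and 4.92 CPM in the same cells, and the part of T cell RNA in the result was not tested. With the level of the class that held the least of a gene subtracted, the Icos ratio in the monocyte-macrophage-like cells was 1.14 in place of 3.11. That class, the type 2 conventional dendritic-like cells, held 0 Icos UMIs in KPC-shV and 18 in KPC-shZEB1. The subtraction thus lowered the KPC-shZEB1 level only, and its ratio rests on these few UMIs. For Cd28 the ratio after subtraction was 3.08 in place of 2.71. It was 1.92 for Tnfsf4 and 1.83 for Cd40lg, both unchanged since their least class held 0 UMIs. The subtraction gave no value for Tnfrsf4.

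The partner genes of the pathway were 25: 8 other receptors, 9 other ligands and 8 adaptors or targets. Their ratios were not computed under the alternatives used for the members. In regulatory T-like cells Btla, an inhibitory receptor, stood at 52.5 and 124 CPM, and Tnfsf8, the ligand of CD30, at 22.5 and 152 CPM, a ratio of 6.77 (2.99 to 18.9) from 6 and 91 UMIs. They were the 1 of 5 other receptors and 1 of 4 other ligands past the fold there, both higher, and among 7 adaptors Traf5 was higher and Traf6 lower. Over all genes of this class 12.9% were higher and 9.29% lower. In conventional CD4 T-like cells 2 of 6 other receptors were lower: Ctla4, the inhibitory rival of Cd28, at 758 and 498 CPM with a ratio of 0.657 (0.586 to 0.737), and the adhesion receptor Cd226 at 142 and 77.0 CPM with a ratio of 0.542 (0.411 to 0.719). The ligands Tnfsf9 and Cd70 were also lower, 2 of 6, and 0 of 8 adaptors were past the fold. Over all genes of the conventional CD4 T-like class 13.3% were higher and 7.03% lower.

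In effector CD8 T-like cells 3 of 6 other ligands were higher, namely Cd86 at 51.9 and 105 CPM, Cd70 at 8.65 and 21.9 CPM, and Tnfsf8 at 74.1 and 161 CPM, and 0 of 5 receptors and 0 of 8 adaptors were past the fold. Over all genes of this class 11.9% were higher and 5.96% lower. Cd86, a ligand of CD28, is a gene of antigen-presenting cells, and it was also higher in naive or memory CD8 T-like (38.4 and 105 CPM), gamma-delta T-like (33.3 and 105 CPM) and NK-like cells (35.0 and 92.8 CPM). Its level was 1140.0 and 1242 CPM in monocyte-macrophage-like and 77.5 and 148 CPM in granulocyte-like cells, and the part of RNA from such cells in these results was not tested. Naive or memory CD8 T-like cells held Ctla4 at 26.4 and 109 CPM, from 11 and 135 UMIs, and Btla at 52.8 and 96.2 CPM, from 22 and 119 UMIs. These were 2 of 5 receptors, both higher. Of the other ligands in that class Cd80 and Cd86 were higher and Tnfsf8 and Cd48 lower, 4 of 4. Its adaptor Traf6 was lower, 1 of 7. Over all genes of the naive or memory CD8 T-like class 15.2% were higher and 7.1% lower.

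In gamma-delta T-like cells Btla was the 1 of 4 other receptors and Cd86 the 1 of 2 other ligands past the fold, both higher, and 0 of 6 adaptors were. NK-like cells had Cd27 higher (1 of 4 receptors), Tnfsf8 lower and Cd86 higher (of 4 ligands), and Bcl2l1 higher and Traf5 lower (of 8 adaptors). In B-like cells Tnfsf9 and Tnfsf8 were higher, 2 of 5 ligands, both at most 8.06 CPM, with 0 of 4 receptors and 0 of 8 adaptors past the fold. Over all genes, 15.5% were higher and 11.2% lower in the gamma-delta T-like cells. The shares were 11.9% and 8.2% in the NK-like and 13.4% and 3.81% in the B-like cells.

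Tnfsf9, the ligand of 4-1BB, differed in opposite ways in the dendritic classes. It stood at 221 and 122 CPM in type 2 conventional dendritic-like cells, a ratio of 0.554 (0.464 to 0.663), and at 30.2 and 83.5 CPM in mature dendritic-like cells, a ratio of 2.77 (1.55 to 5.36). In the mature cells, where its receptor Tnfrsf9 was lower in KPC-shZEB1, the survival gene Bcl2l1 stood at 114 and 225 CPM, a ratio of 1.98 (1.46 to 2.74). Btla was higher there too, at 118 and 215 CPM, the 1 receptor of 1, Tnfsf9 was 1 of 5 ligands, and of 8 adaptors Traf2 and Bcl2l1 were higher and Traf5 lower. Over all genes of the mature class 13.4% were higher and 10.3% lower. In the type 2 cells Cd226 was higher, 1 of 2 receptors, at 9.10 and 37.4 CPM, and Tnfsf9 and Tnfsf8 were lower, 2 of 5 ligands, with 0 of 8 adaptors past the fold. Over all genes of the type 2 class 13.3% were higher and 7.37% lower. In monocyte-macrophage-like cells 6 of 8 other receptors and 3 of 8 other ligands were higher, and 0 of 8 adaptors were past the fold, beside the 10.2% of all genes that were higher there. Cd3e stood at 0.981 and 4.92 CPM in these cells, and the part of T cell RNA in these counts was not tested either. The largest of these by level was Tnfsf8, at 12.1 and 27.7 CPM.

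The genes most like each member were named by the Pearson correlation of log2(CPM + 1) over 28 points, 14 classes in each of the 2 libraries, among 7605 genes. Points of 1 library share its depth and its free RNA, and the values are descriptions. Icos was most like Ctla4 (0.967), Bcl11b (0.966) and Lat (0.963), and Cd28 most like Trbc2 (0.967) and Lck (0.959), genes of T cells. Tnfrsf18 was most like Rab27a and Vps54 (both 0.934), and Tnfrsf9 most like Ttc39c (0.889) and Mmd (0.854). Tnfrsf4 was most like Sdf4 (0.898), Itgb8 (0.892) and Ikzf4 (0.883), and Sdf4 ends 232 bases before the annotated Tnfrsf4 start on the same strand, and whether the counting separated reads of these neighbours was not tested. Cd40lg was most like Kcnmb4 (0.949), Tnfsf4 most like Klri2 (0.801), Icosl most like Btk (0.879), a kinase of B cells, and Cd40 most like Cbfa2t3 (0.890). By Spearman's rho 10 of the 27 genes so named, 3 for each member, were named again. Ttc39c and Mmd again led for Tnfrsf9 and Kcnmb4 for Cd40lg. Other genes led for Tnfrsf4 (Gm20275, 0.832), Icos (Camk4, 0.950), Cd28 (Themis, 0.949) and Cd40 (Pld4, 0.877). The leading gene also changed for Tnfrsf18 (Rhof, 0.933), Tnfsf4 (Klri1, 0.802) and Icosl (Gm34084, 0.827).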

How the data were processed

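The authors aligned 10x 3′ libraries to mm10 with Cell Ranger 7.0.1 and deposited raw UMI counts for each gene in each barcode. Whether reads in introns were counted was not given in the sources used here, and introns would move the level of long genes. Cells were kept if they had 500 genes or more, between 1000 and 60000 UMIs, and no more than 15% mitochondrial UMIs, and 319 and 334 cells with a Scrublet doublet score above 0.2 were removed (2.72% and 2.68%), a limit set after the score histograms were seen. Both libraries were clustered together in scanpy 1.11.5 with leidenalg 0.10.2, using 3000 variable genes, 30 components and a resolution of 1. The members and partner genes were left out of the variable genes. T and NK cells were clustered again at a resolution of 1.5, and dendritic cells again at 1. Clusters were named "X-like" from marker lists. The naming limits were set after clusters were seen: a marker score of at least 0.2, and, for T and NK sub-clusters only, the first marker in at least 20% of cells. Clusters that missed them are named by leading genes, and class names are rebuilt, not the study's.

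Counts were summed per class and library and divided by the class total. With 1 library per group no test was run, and the ratio script was tested on simulated data. The members and gene lists were chosen with earlier results of these data known. The 46 barcodes in both libraries were kept, 36 of them after filtering. Named were the 9 members, partner genes past 1.5-fold, the genes most correlated with each member, and class markers. A gene at 0 UMIs is given with the CPM of 3 UMIs. Alternatives were other cell limits, doublet limits, clusterings, gates by lineage genes, background subtraction and leaving out top cells.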

Additional observations from a re-analysis of the deposited data

Results flagged for a closer look

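Icos was lower in KPC-shZEB1 in gamma-delta T-like cells, at a ratio of 0.723, and higher in effector CD8 T-like cells, at a ratio of 1.47, and each interval lay on its own side of 1. The 8 alternatives that gave a value kept the first between 0.721 and 0.817, while the 12 of the second ranged from 0.887 to 1.65. For the gamma-delta T-like cells no value came from keeping doublets or from clustering each library alone. Tnfrsf9 was lower in mature dendritic-like cells at 0.625 and higher in gamma-delta T-like cells at 2.02. Of the 52 Tnfrsf9 UMIs of gamma-delta T-like cells of KPC-shZEB1, 36 came from 1 cell. These opposite directions in 2 cell classes under the same contrast are what singled the results out, and the difference between the classes was not tested, since each group is 1 library.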

How the results depend on the processing

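No paired analysis was possible because each group is 1 library and no test was run. Of 95 values of the members in their leading classes under alternatives, 83 moved by less than the counting interval, 11 moved beyond it and 1 reversed, and in other classes the numbers were 591, 117 and 16 of 724; the causes were not tested. Reversed was counted only where the interval of the ratio lay on one side of 1. Where it lay across 1, 17 of 67 values in the leading classes (6 members) and 97 of 484 in other classes also fell on the other side of 1. Over the cells' own means the regulatory T-like ratio of Tnfrsf4 was 0.956, and by lineage UMIs 0.909, with 0.79 for Tnfrsf9 and 0.677 for Tnfrsf18. With at least 200 genes and 500 UMIs the ratio was 1.11 for Tnfrsf9 in regulatory T-like cells and 0.517 for Tnfsf4 in effector CD8 T-like cells, where it was also 0.57 with 8% doublets, 1.27 with each library alone, 1.79 without 5 cells and 0.645 without cycling cells. Each library alone reversed Cd28 (1.22) and Tnfsf4 (0.0526) in conventional CD4 T-like cells and Icos in effector CD8 T-like (0.887) and both CD8 subsets (0.973), and 8% doublets reversed Icos in effector cells (0.956). Tnfrsf9 reversed in naive or memory CD8 T-like cells (0.603 with no doublets removed, 0.642 at resolution 2), in gamma-delta T-like cells (0.704 with 8% doublets, 0.669 with lower limits or no upper UMI limit, 0.647 at resolution 2 or with members among the variable genes), in type 2 conventional dendritic-like cells (1.1 with no doublets removed, 1.05 alone, 2.41 without 5 cells) and in monocyte-macrophage-like cells (0.883 with the least class subtracted, 0.973 with sub-clusters weighted equally, an alternative chosen after seeing the data). Cd40 in mature dendritic-like cells was 1.74 without 5 cells, which are a larger portion of the smaller KPC-shV class. Pairs past the fold were 15 of 56 (19% over all genes), 9 of 56 at a fold of 2 (6.23%) and 27 of 71 at 10 UMIs (28.5%). Depth limits low genes most, as with 3 UMIs in regulatory T-like cells of KPC-shV at 11.3 CPM.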
